A study of Mus musculus with 24 samples.

Results

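Fatty acid oxidation and ketogenesis are described here through 8 genes, Ppara, Cpt1a, Cpt1b, Cpt2, Acadm, Acadl, Hadha and Bdh1, chosen by name for their place in the pathway and not by a measured value. All of their probes were taken, 15 of the 45281 probes of the array, and 8 of the 19057 genes that its annotation names. The study gave male C57BL/6J mice an intraperitoneal injection of gapmers, which are antisense oligonucleotides whose paired RNA is cut by RNase H. One gapmer targeted Sox6, a transcription factor gene of the SOX family, and the other served as control. Liver and epididymal white adipose tissue (EWAT) were profiled on Illumina bead arrays 48 h later. All mice ate normal chow freely and their age is not given. Each treatment had 4 animals in each tissue, here C1 to C4 for the control gapmer and S1 to S4 for the SOX6 gapmer. Some animals were measured on 2 arrays, so that control liver had 8 arrays, treated liver 6, and control and treated EWAT 5 each.

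The mitochondrial inner membrane does not pass long-chain acyl-CoA, so the acyl group is first moved to carnitine by CPT1, carried across, and moved back to coenzyme A by CPT2. Acyl-CoA dehydrogenases and the trifunctional protein then shorten the chain in repeated cycles to acetyl-CoA, which liver can turn into ketone bodies. PPARA, a nuclear receptor bound by fatty acids, raises many genes of this pathway in fasted liver. White fat cells mainly store triglyceride and release fatty acids, and hold few mitochondria.

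The labelled tissues carried their own genes. Averaged per sample, 13 hepatocyte genes lay at 12.81 to 12.97 log2 units in liver samples and at 5.24 to 5.59 in EWAT samples, and 12 adipocyte genes lay at 11.12 to 11.66 in EWAT. On an array, 32.9% to 36.4% of the probes were detected in liver and 41.5% to 45.9% in EWAT. Sox6 was measured above background by 1 of its 5 probes, which is annotated to a cDNA clone, and the others were detected on no array. In EWAT this probe averaged 5.91 ± 0.34 log2 units in control animals and 5.34 ± 0.37 in treated animals (SD, n = 4 each), a log2 difference of -0.57 (SE 0.23, 95% interval -1.10 to -0.05, limma unadjusted p = 0.0361, adjusted p = 0.841 over all genes). It read 6.14, 6.19, 5.45 and 5.85 in C1 to C4 and 5.54, 5.12, 5.74 and 4.94 in S1 to S4, so the groups overlapped through C3. Within the 4 chips the difference was -0.27, -0.44, -0.84 and -0.50, and it stayed negative under all 26 alternatives, from -0.88 to -0.26. The lowest readings were those of S2 and S4, which also stood apart in other genes, as described below. A fit without these samples was among the 26 alternatives. The treated samples left in it, S1 and S3, read 5.54 and 5.74, within the control range of 5.45 to 6.19. How much of the Sox6 difference came with what set S2 and S4 apart was not tested. In liver the Sox6 probe averaged 4.98 ± 0.20 and 4.83 ± 0.09, with detection on 7 of 8 control arrays and 2 of 6 treated arrays. Sox6 was not called over all genes in either tissue.

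Some samples stood apart. EWAT S2 and S4 read 6.86 and 6.80 for the mean of 8 genes of epididymal epithelium, against 4.54 to 4.65 in the controls, 4.63 in S1 and 5.33 in S3. They also read 11.48 and 11.10 for 6 smooth muscle genes, against 6.84 to 8.20 in the other 6 samples. Spink8, a protease inhibitor gene of the epididymis, read 14.20 in S2 and 13.82 in S4. Only 4 of the 8 epididymal genes were detected on any EWAT array, and Lcn5, Lcn9 and Rnase10 were detected on none. Of the detected genes, Spink8 and Defb42 were highest in S2 and S4, whereas Lcn8 and Adam7 were highest in S3. Lcn8 read 4.87 in S2, 5.39 in S4 and 6.86 in S3, against 4.85 to 5.22 in controls. Adam7 read 4.80 in S2, 4.84 in S4 and 7.41 in S3, against 4.65 to 5.39 in controls. The high epididymal means of S2 and S4 thus came through Spink8 and Defb42. EWAT C3 and S3 read 8.36 and 8.32 for 10 genes of ciliated and efferent duct epithelium, against 4.65 to 5.29 in the other 6 samples. In liver, C1 had the highest mean of 11 macrophage genes, 7.13 against 5.93 to 6.71, and of 9 endothelial genes, 7.29 against 6.43 to 6.86. In bulk tissue, fewer cells of a type and less RNA per cell cannot be told apart.

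Between the control tissues, calls were common among all genes, and members were called in both directions. Bdh1, Ppara, Cpt1a and Hadha were higher in liver, Acadm and Cpt2 were higher in EWAT, and Acadl and Cpt1b did not pass the test (limma, adjusted p under 0.05). Of all 11471 genes tested in this contrast, 26.2% were higher in liver and 39.6% higher in EWAT. Levels in this comparison come from a normalization of all 24 arrays together.

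Bdh1 encodes the mitochondrial 3-hydroxybutyrate dehydrogenase, which makes 3-hydroxybutyrate from acetoacetate in liver and reverses the step in tissues that burn ketone bodies. Its brighter probe averaged 10.84 ± 0.16 in control liver and 4.55 ± 0.12 in control EWAT (SD, n = 4 each), a log2 difference of 6.29 (SE 0.53, limma adjusted p = 2.24e-08). The other Bdh1 probe read 8.30 ± 0.10 and 4.53 ± 0.03, a log2 difference of 3.78. Each probe was detected on all liver arrays and on 1 of 5 control EWAT arrays, so both differences are limited by background in EWAT. Ppara, the receptor gene, was detected on all 14 liver arrays and on 0 of the 10 EWAT arrays. It averaged 6.41 ± 0.40 in control liver and 4.44 ± 0.05 in control EWAT (SD, n = 4 each), at least 3.24-fold higher in liver (limma adjusted p = 2.39e-08). A probe not above background gives only a bound, which is set here from the dimmest detected probe of each array. Cpt1a encodes the liver form of carnitine palmitoyltransferase 1, the step that malonyl-CoA inhibits. Its brighter probe averaged 5.19 ± 0.32 in control liver and 4.44 ± 0.11 in control EWAT (SD, n = 4 each, limma adjusted p = 0.00332). It was detected on 9 of 14 liver arrays and 2 of 10 EWAT arrays. The value set as for Ppara was 1.39-fold. It is not a strict bound, since the probe was detected on only 5 of 8 control liver arrays.

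Acadm, which encodes the medium-chain acyl-CoA dehydrogenase, averaged 12.22 ± 0.08 in control liver and 12.71 ± 0.12 in control EWAT (SD, n = 4 each), 1.41-fold higher in EWAT (limma adjusted p = 5.71e-05). Cpt2 was 1.21-fold higher in EWAT (log2 difference -0.27, SE 0.09, limma adjusted p = 0.0169) and Hadha, the alpha subunit of the trifunctional protein, was 1.41-fold higher in liver (log2 difference 0.49, SE 0.17, limma adjusted p = 0.0178). These last calls were lost when any of 3 animal labels was left out, with differences of -0.20 to -0.26 for Cpt2 and 0.41 to 0.46 for Hadha. The limma adjusted p of Cpt2 was 0.0904 without C1, 0.0614 without C2 and 0.124 without C4, and that of Hadha was 0.0588 without C1, 0.0940 without C3 and 0.0792 without C4. The 3 Cpt2 probes also disagreed, since the third read 10.33 ± 0.06 in control liver and 10.21 ± 0.31 in control EWAT (SD, n = 4 each). Acadl, which encodes the long-chain acyl-CoA dehydrogenase, differed by 0.32 log2 units (95% interval -0.13 to 0.76, limma adjusted p = 0.201). Cpt1b, the muscle form of carnitine palmitoyltransferase 1, differed by 0.01 (95% interval -0.43 to 0.44, limma adjusted p = 0.976), with detection on 5 of 14 liver arrays and 10 of 10 EWAT arrays.

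**Figure D1:**
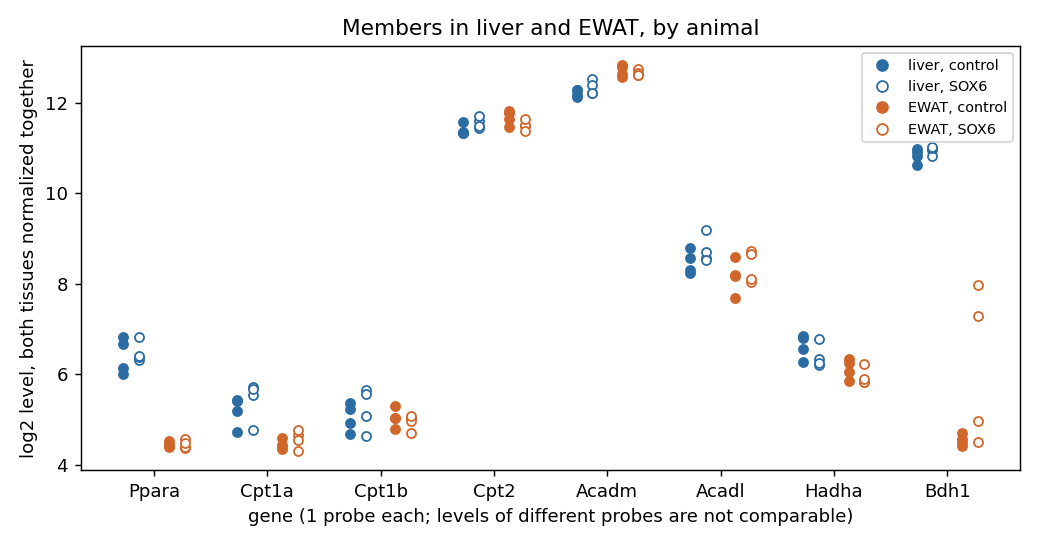
Log2 level of each member in every animal of both tissues, after normalization of all arrays together. Filled points are control animals and open points SOX6 gapmer animals (4 each). Bdh1 separates the tissues most clearly, at 10.84 in control liver and 4.55 in control EWAT, and EWAT S2 and S4 lie apart from the other EWAT samples.

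In liver, the question was whether the pathway differed after the SOX6 gapmer, and 0 of the 8 members passed the test. All 8 were tested, through 13 of their 15 probes. Their log2 differences, treated minus control, ran from -0.23 to 0.29 with a median of 0.13, and 7 were positive and 1 negative. Over all 8939 genes the median was 0.004, with 4552 positive and 4387 negative. Of all genes, 0.235% passed the adjusted threshold, which is 21 genes (12 without C2 or without S3). At an unadjusted p under 0.05, 9.89% of all genes and 0 of the 8 members were called by limma. Among the 13 detected member probes 12 differences were positive, and in 2 probes the ranges of the treatments did not overlap. This separation occurred in 5.56% of all 15600 detected probes.

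Ppara read 5.69, 6.40, 6.22 and 5.55 in control livers C1 to C4 and 5.87, 5.93, 5.95 and 6.38 in treated livers S1 to S4. The controls spanned nearly the whole range and the groups overlapped, with S4 as the single treated liver near the upper controls. The log2 difference was 0.07 (SE 0.20, 95% interval -0.37 to 0.50, limma adjusted p = 0.947). Its sign was negative without C1 (-0.02), without C4 (-0.07) and without S4 (-0.05). Over the 8 livers, the log2 levels most like Ppara were those of Xpnpep3 (Pearson r = 0.97), Zscan21 (0.95) and Ephx2 (0.93), picked from all genes and given as a description.

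The carnitine shuttle was next. Cpt1a read 5.06, 5.08, 4.89 and 4.61 in controls and 5.15, 5.30, 5.27 and 4.63 in treated livers. C4 and S4 were the lowest of their groups and the groups overlapped. The log2 difference was 0.18 (SE 0.17, limma adjusted p = 0.778), and the second Cpt1a probe, annotated to a cDNA clone, was detected on 0 arrays of either tissue. The levels most like Cpt1a over the 8 livers were those of Plekhf2 (r = 0.99), Psmc6 (0.98) and Strn4 (0.92). The promoter of Cpt1a is shown with that of Acadm because, among the 7 members with a promoter in the RefSeq table (GRCm38.p6), these hold the 6-base half-site of nuclear receptors such as PPARA, AGGTCA or its complement TGACCT. Each window runs from 250 bases before the start to 50 bases after it, and capitals mark the half-site.
Cpt1a, chr19:3323051-3323350, + strand: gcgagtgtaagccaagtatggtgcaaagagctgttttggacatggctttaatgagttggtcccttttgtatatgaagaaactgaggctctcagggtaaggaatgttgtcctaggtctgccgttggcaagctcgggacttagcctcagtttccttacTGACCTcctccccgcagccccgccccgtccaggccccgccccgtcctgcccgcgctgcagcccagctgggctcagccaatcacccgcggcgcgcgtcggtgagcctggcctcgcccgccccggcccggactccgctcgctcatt
Acadm, chr3:153944594-153944893, - strand: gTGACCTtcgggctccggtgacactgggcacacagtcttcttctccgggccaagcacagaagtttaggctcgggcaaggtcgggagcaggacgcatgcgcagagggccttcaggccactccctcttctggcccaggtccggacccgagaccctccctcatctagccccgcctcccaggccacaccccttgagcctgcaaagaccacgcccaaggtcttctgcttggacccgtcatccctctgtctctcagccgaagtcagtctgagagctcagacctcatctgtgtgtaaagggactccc
The half-site began at position 157 of the Cpt1a window and at position 2 of the Acadm window, both on the minus strand relative to the gene. It was found in 2 of the 8 member windows and in 16.26% of all 32851 promoters. The direct repeat of this half-site spaced by 1 base was found in 0 of the 8 windows and in 13 of all promoters. The SOX core motif AACAAT, or ATTGTT on the other strand, was found in 0 of the 8 windows and in 10.72% of all promoters.

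Cpt1b was close to background in liver, detected on 5 of 14 arrays, and read 4.58, 4.96, 4.73 and 5.05 in controls and 4.56, 4.82, 5.24 and 5.17 in treated livers. The log2 difference was 0.12 (SE 0.17, limma adjusted p = 0.874), and its second probe was detected on 3 of 14 arrays. Cpt2 was bright, and its 3 probes gave differences of 0.17, 0.17 and 0.29. The brightest read 11.35, 11.32, 11.59 and 11.32 in controls and 11.62, 11.43, 11.72 and 11.50 in treated livers, where only C3 lay within the treated range (limma adjusted p = 0.571). The third probe read 10.14, 10.24, 10.29 and 10.16 in controls and 10.40, 10.34, 10.70 and 10.53 in treated livers. Here every treated liver lay above every control, and the difference of 0.29 (SE 0.09, 95% interval 0.09 to 0.48) had a limma adjusted p of 0.334 over all detected probes. Within the 4 chips this probe differed by 0.53, 0.17, 0.19 and 0.27.

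Of the enzymes of the beta-oxidation cycle, Acadm read 12.22, 12.32, 12.34 and 12.17 in controls and 12.27, 12.58, 12.45 and 12.27 in treated livers, a difference of 0.13 (SE 0.08, limma adjusted p = 0.661). S2 and S3 were above all controls and S1 and S4 among them. Acadl read 8.51, 8.25, 7.97 and 7.90 in controls and 8.24, 8.93, 8.40 and 8.21 in treated livers by its brightest probe. S2 was the highest, and the difference was 0.29 (SE 0.18, limma adjusted p = 0.640). The other Acadl probes differed by 0.07 and 0.02. Hadha was the member with a negative difference, -0.23 (SE 0.17, limma adjusted p = 0.707). Its single probe, annotated to a cDNA clone, read 6.42, 5.81, 6.36 and 6.11 in controls and 6.36, 5.74, 5.88 and 5.81 in treated livers, so that 3 of the 4 treated livers were near the lowest control.

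Bdh1 had the member probe with the smallest p in liver, and its probes disagreed. The dimmer probe, ILMN_2708928, read 7.99, 7.94, 8.10 and 7.83 in controls and 8.52, 8.34, 8.32 and 8.50 in treated livers. Every treated liver lay above every control. The difference was 0.46 (SE 0.10, 95% interval 0.25 to 0.67), with a limma adjusted p of 0.126 over all detected probes, of which 30 passed. It was 0.49, 0.36, 0.39 and 0.54 within the 4 chips, and the adjusted p stayed above the threshold under all 22 alternatives run, the lowest being 0.0522. The brighter probe, ILMN_1231553, read 10.76, 10.84, 10.91 and 10.52 in controls and 10.88, 10.76, 10.94 and 10.96 in treated livers. Only C4 lay below all treated livers there, and the difference was 0.12 (SE 0.09, 95% interval -0.08 to 0.33, limma adjusted p = 0.696). The difference between the probes was not tested. Both starts of Bdh1 in the RefSeq table are shown, since a gene with more than one start can yield transcripts that probes do not share, and which transcript each probe reads is not given by the annotation used here. No capitals occur, as neither window holds a motif searched.
Bdh1, chr16:31422047-31422346, + strand: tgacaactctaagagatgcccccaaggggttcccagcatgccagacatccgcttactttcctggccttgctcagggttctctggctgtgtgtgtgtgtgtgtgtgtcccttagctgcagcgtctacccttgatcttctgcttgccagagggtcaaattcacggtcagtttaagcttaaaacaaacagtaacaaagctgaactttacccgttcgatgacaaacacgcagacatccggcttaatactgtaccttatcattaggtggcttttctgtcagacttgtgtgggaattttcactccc
Bdh1, chr16:31428503-31428802, + strand: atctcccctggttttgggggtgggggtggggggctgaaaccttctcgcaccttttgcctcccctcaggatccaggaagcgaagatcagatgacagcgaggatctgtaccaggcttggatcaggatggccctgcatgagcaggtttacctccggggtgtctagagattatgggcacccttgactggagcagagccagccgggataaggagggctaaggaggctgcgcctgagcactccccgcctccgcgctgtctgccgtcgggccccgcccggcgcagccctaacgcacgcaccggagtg

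**Figure D2:**
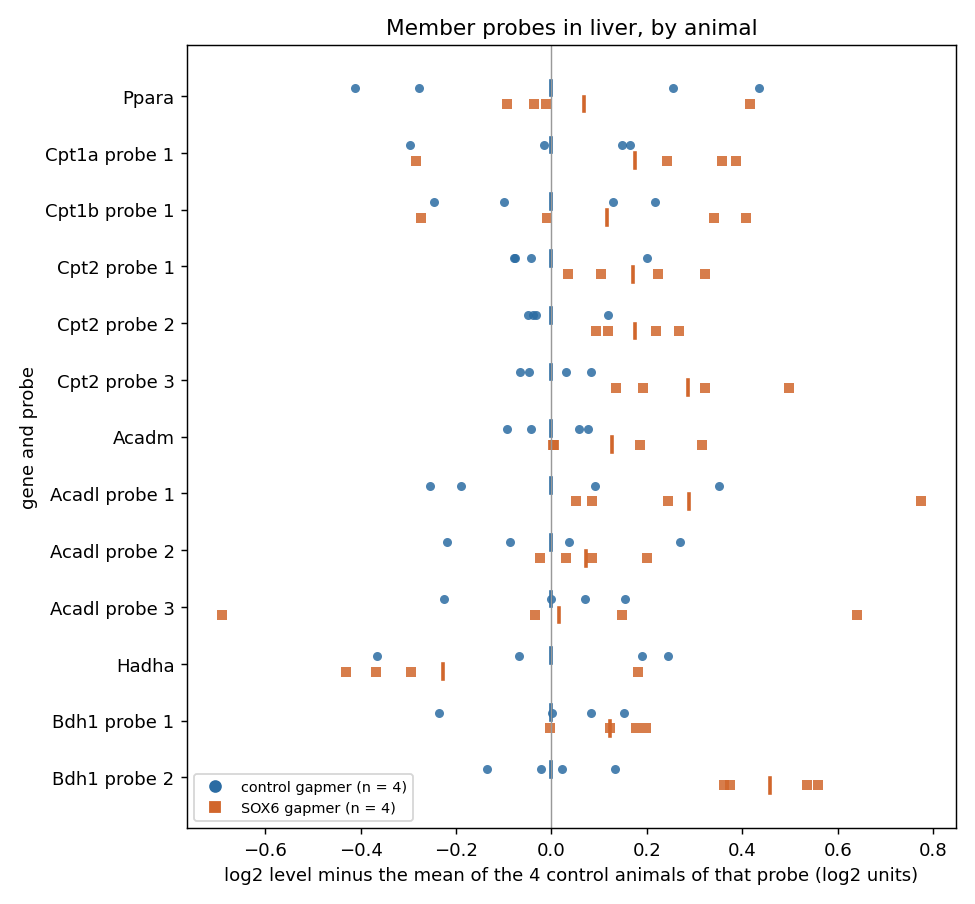
Log2 level of each detected member probe in liver minus the mean of its 4 control animals, in log2 units. Circles are control and squares SOX6 gapmer animals, and bars are group means. In Bdh1 probe 2 and Cpt2 probe 3 the groups do not overlap, with mean differences of 0.46 and 0.29, and probes of a gene are numbered from the brightest in liver.

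Around the members, 7 lists of pathway genes were read in liver, and 0 of their 88 tested genes passed the test. Of these genes 54 had positive and 34 negative differences, with a median of 0.07. Mitochondrial beta-oxidation had 15 of 19 positive (median 0.11). Hadhb, the beta subunit of the trifunctional protein, read 11.07, 10.97, 11.08 and 11.04 in controls and 11.29, 11.64, 11.26 and 11.19 in treated livers, a difference of 0.31 (SE 0.10, limma adjusted p = 0.295). Its groups did not overlap, whereas Hadha, the partner subunit, had a negative difference. Acadsb, a dehydrogenase of branched short chains, differed by 0.29 (limma adjusted p = 0.245), Acaa2, the last thiolase of the cycle, by 0.20 (limma adjusted p = 0.471), and Acad9, an acyl-CoA dehydrogenase that also assembles respiratory complex I, by -0.43 (limma adjusted p = 0.259).

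The list of PPARA and its co-regulators had 13 of 15 positive (median 0.19). Esrra, a nuclear receptor of mitochondrial genes, read 8.21, 8.36, 8.26 and 8.61 in controls and 8.74, 8.72, 8.75 and 8.99 in treated livers. The groups did not overlap, and the difference of 0.44 (SE 0.11) had a limma adjusted p of 0.185. This became 0.0330 when repeat arrays were not averaged and 0.0258 when chip was a term as well. Here and below, fits without averaging took the animal as a random block. Creb3l3, a liver factor that acts with PPARA in fasting, differed by 0.23 (limma adjusted p = 0.309). Ppargc1a, a co-activator of PPARA, differed by 0.26 (limma adjusted p = 0.729).

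Malonyl-CoA, the inhibitor of CPT1, is made at the mitochondrial surface by the product of Acacb. Acacb read 9.11, 9.99, 9.60 and 9.67 in controls and 9.04, 8.66, 8.60 and 8.43 in treated livers. Every treated liver lay below every control, with C1 and S1 close together, and the difference was -0.91 (SE 0.18, limma adjusted p = 0.0997). The adjusted p was 0.00197 without averaging of repeat arrays, 0.00465 with chip as a term as well, 0.0312 with array weights and 0.0170 without C1, so this call depended on the fit. Mlycd, which breaks malonyl-CoA down, differed by 0.13 (limma adjusted p = 0.644), and Slc25a20, the carnitine carrier of the inner membrane, by -0.06 (limma adjusted p = 0.896).

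Targets that PPARA raises in fasting had 7 of 16 positive (median -0.02). Fgf21, a hormone of fasted liver, read 8.31, 7.92, 5.10 and 5.71 in controls and 5.28, 8.95, 6.15 and 5.71 in treated livers. C1, C2 and S2 were high in both treatments. Cyp4a14, an omega-hydroxylase, read 9.91, 8.28, 10.02 and 7.40 in controls and 8.65, 11.56, 10.69 and 6.74 in treated livers, again with wide overlap. Angptl4, an inhibitor of lipoprotein lipase, differed by 0.56 (SE 0.39, limma adjusted p = 0.679), Pdk4, which holds back glucose oxidation, by -0.26 (SE 0.23, limma adjusted p = 0.759), and Acot1, a cytosolic thioesterase, by -0.08 (SE 0.20, limma adjusted p = 0.935). Peroxisomal beta-oxidation had 8 of 17 positive (median -0.02). Ehhadh, its bifunctional enzyme, differed by 0.29 (limma adjusted p = 0.686), and Acaa1a, its thiolase, by -0.27 (limma adjusted p = 0.185), with 12.29 to 12.47 in controls and 11.99 to 12.16 in treated livers. Ketone body synthesis and use had 2 of 6 positive (median -0.11).

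Other lists had differences of similar or larger size in the same livers, with no call. The clock list had 10 of 11 positive (median 0.40), with Per2, a clock repressor, at 0.69 (limma adjusted p = 0.389). The fed and fasted list had 6 of 11 positive (median 0.05), from -1.08 to 0.70. Its 3 genes of smallest p were Acly, Fasn and Pnpla3 of fat synthesis and storage. They differed by -0.61, -1.08 and -1.01 (limma adjusted p = 0.146, 0.203 and 0.157). When repeat arrays were not averaged, their limma adjusted p was 0.00773, 0.0243 and 0.0144. Pnpla3 was detected on 8 of 8 control arrays and 1 of 6 treated arrays. It met the detection filter only through controls, where it was high, so its p-values are descriptive. Without C1, the liver with high macrophage and endothelial genes, 6 of 8 members and 15 of 19 genes of mitochondrial beta-oxidation were positive. The part of these lists in the members' values was not tested.

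In EWAT, 6 of the 8 members were tested, through 10 of the 15 probes, and 0 passed. Ppara was detected on 0 of 10 arrays, at 4.39 to 4.66 in all samples, and Cpt1a on 2 of 10. Of all 10978 genes tested, 0% passed the adjusted threshold, and 5% (549 genes) had an unadjusted p under 0.05, among them 1 of the 6 members, Bdh1. Bdh1 met the detection filter only through treated samples, where it was high, so its p is given as a description. Of the 10 detected member probes 2 had positive and 8 negative differences, and in 0 of them did the groups separate, against 2.59% of all 20292 detected probes. The members' median was -0.09, and that of all genes -0.02.

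Bdh1 had a difference of 1.84 (SE 0.76, 95% interval 0.13 to 3.55, limma adjusted p = 0.841), carried by 2 samples. Probe ILMN_1231553 read 4.45, 4.56, 4.83 and 4.64 in controls C1 to C4 and 4.55, 8.36, 5.21 and 7.70 in treated samples S1 to S4. It was detected on 1 of 5 control arrays and 3 of 5 treated arrays. The probe thus met the filter of 3 animals only through the treated group, and its interval and p-value are descriptive. S2 and S4 are the samples with high Spink8, Defb42 and smooth muscle genes, and S1 lay among the controls. Without S2 and S4 the difference was 0.25, and without C3 and S3 as well it was -0.00093 (no filter on dim probes, settings chosen after the data were seen). Within the 4 chips it was -0.22, 0.65, 2.07 and 2.87. The other Bdh1 probe, ILMN_2708928, stayed near background, at 4.47 in S2 and 4.54 in S4, with 4.55 to 4.64 in controls. In liver both probes were detected on all 14 arrays. How much of the Bdh1 signal came from tissue other than fat was not tested.

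**Figure D3:**
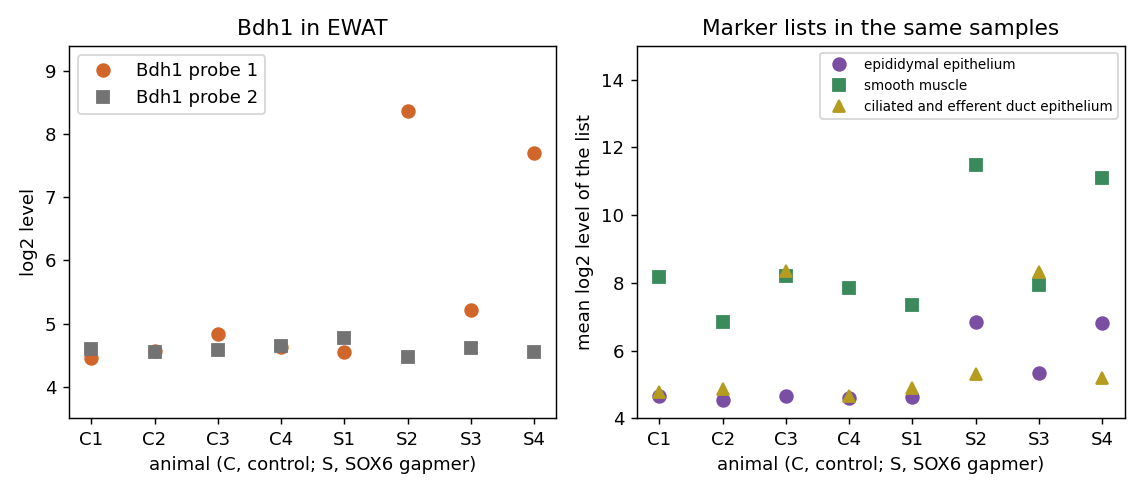
Left, log2 level of the 2 Bdh1 probes in each EWAT sample. Right, mean log2 level of 3 marker lists in the same samples. Probe 1 reads 8.36 in S2 and 7.70 in S4, and probe 2 is near background in every sample. The means of the epididymal and smooth muscle lists are also high in S2 and S4, the epididymal mean through Spink8 and Defb42.

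Cpt2 read 11.75, 11.63, 11.48 and 11.80 in control EWAT and 11.49, 11.52, 11.39 and 11.63 in treated EWAT by its brightest probe. C3, a sample with duct epithelium genes, was the lowest control and the groups overlapped. The difference was -0.16 (SE 0.10, limma adjusted p = 0.841), and the other probes gave -0.13 and -0.20. Cpt1b, the form of the enzyme that white fat also expresses, was detected on all 10 arrays. It read 5.65, 4.97, 5.32 and 5.32 in controls and 5.32, 5.23, 4.85 and 5.37 in treated samples, a difference of -0.12 (SE 0.18, limma adjusted p = 0.939). Acadm read 12.72, 12.55, 12.49 and 12.76 in controls and 12.66, 12.53, 12.58 and 12.52 in treated samples, a difference of -0.06 (limma adjusted p = 0.936). Acadl had probes of both signs, at 0.21, -0.16 and -0.14. Its brightest read 8.95, 8.57, 8.10 and 8.56 in controls and 9.07, 9.01, 8.43 and 8.49 in treated samples (limma adjusted p = 0.900). Hadha read 6.71, 6.80, 6.51 and 6.31 in controls and 6.68, 6.28, 6.27 and 6.33 in treated samples, a difference of -0.19 (limma adjusted p = 0.876), with S1 apart from the other treated samples.

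**Figure D4:**
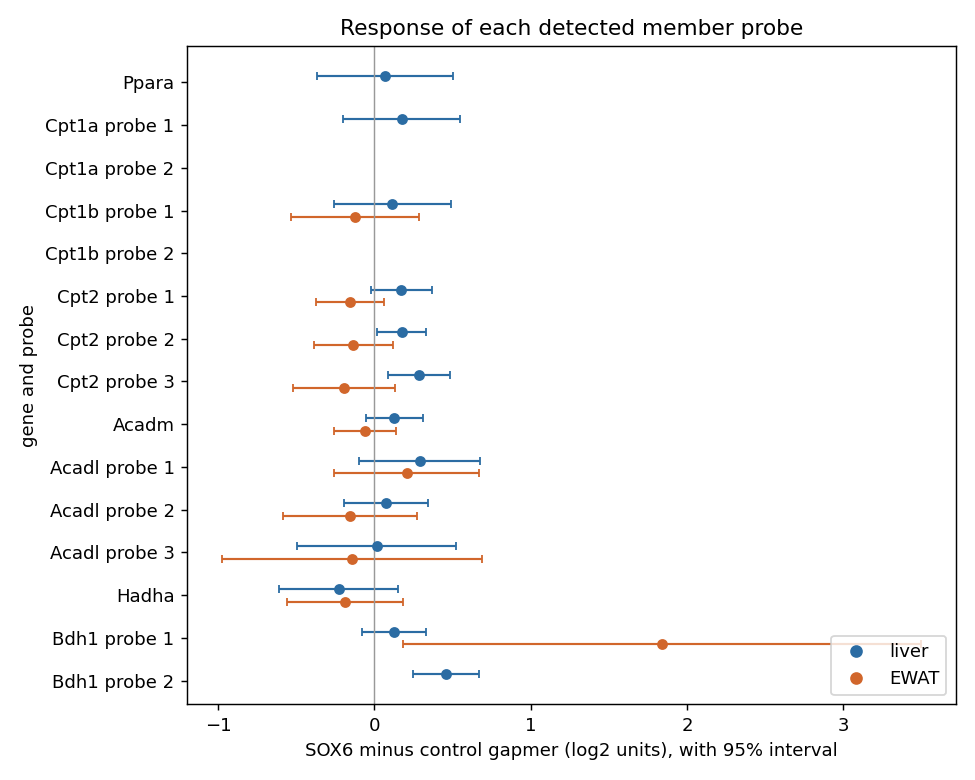
Log2 difference, SOX6 minus control gapmer, of each member probe with its 95% interval from limma, in liver and EWAT. Rows without a point were not detected in enough animals. Most EWAT intervals span 0, Bdh1 probe 1 in EWAT has the widest interval (1.84 with a lower bound near 0), and Bdh1 probe 2 in liver lies at 0.46.

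Over the 7 pathway lists in EWAT, 15 of 80 tested genes had positive and 65 negative differences (median -0.09), and 0 passed. All genes were split 4956 to 6022. This split depended on the scaling: with each array scaled to its median instead of quantile normalized, 39 were positive and 41 negative, while all genes became 7788 to 3190 and their median moved from -0.02 to 0.10. Under both scalings the median over the 80 genes lay below that of all genes. It was -0.09 against -0.02 with quantile normalization and -0.0009 against 0.10 with median scaling. Leaving out all 4 samples that stood apart, with S1 as the remaining treated sample, 19 were positive and 57 negative. The mean of 12 mature adipocyte genes was 11.66, 11.45, 11.27 and 11.62 in controls and 11.41, 11.24, 11.12 and 11.33 in treated EWAT, with C3 as the single control among the treated samples. The mean of 11 macrophage genes ran from 6.76 to 7.72 in controls and from 7.30 to 8.13 in treated samples. The part of these markers in the lists' values was not tested.

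PPARA and its co-regulators had 13 of 14 negative (median -0.24), or 8 of 14 with median scaling. Ppargc1b, a co-activator of mitochondrial genes, read 8.46, 7.41, 7.62 and 7.58 in controls and 7.39, 6.83, 6.93 and 6.98 in treated EWAT. The groups did not overlap, though S1 nearly met C2, and the difference was -0.74 (SE 0.24, limma adjusted p = 0.841). Nrip1, a co-repressor of oxidation genes in fat, differed by -0.85 (SE 0.29) and Esrra by -0.25 (SE 0.10), both at a limma adjusted p of 0.841. The carnitine shuttle list had 7 of 7 negative (median -0.12), mitochondrial beta-oxidation 16 of 19 (median -0.10) and peroxisomal beta-oxidation 14 of 15 (median -0.08). With median scaling these were 5 of 7, 11 of 19 and 7 of 15. Acyl-CoA activation differed from these, with 4 of 6 genes positive and a median of 0.20, or 5 of 6 and 0.33 with median scaling. Fasting-induced PPARA targets had 11 of 15 negative and ketone body synthesis and use 4 of 6, or 7 of 15 and 3 of 6 with median scaling.

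Other genes with larger differences varied widely between EWAT samples. Fabp3, a fatty acid binding protein of muscle, read 4.63, 4.50, 6.00 and 4.45 in controls and 4.44, 7.60, 5.86 and 6.67 in treated EWAT (1.25, limma adjusted p = 0.841). It was detected on 1 of 5 control and 3 of 5 treated arrays. Slc27a2, an acyl-CoA synthetase of liver and kidney, read 8.69 in C3 and slightly more in S3. Outside this pair it read 4.33 to 4.46 in the other controls and 6.45, 6.20 and 5.91 in S1, S2 and S4, and it was detected on 1 of 5 control and 5 of 5 treated arrays. The difference was 1.44 (SE 1.04, limma adjusted p = 0.865), and the lowest adjusted p over the 24 alternatives was 0.111. Fabp3 and Slc27a2 met the detection filter only through treated samples, where they were high, so their p-values are descriptive. Acot1 read 10.22 in C3 and 10.21 in S3, and outside this pair 5.79 to 6.28 in controls and 6.38, 8.31 and 7.78 in S1, S2 and S4 (1.08, limma adjusted p = 0.894). Acsl4 read 6.97 in S2 and 7.17 in S4, with 5.17 to 5.81 in the others. C3 and S3 were thus the highest samples for Slc27a2 and Acot1, and S2 and S4 for Fabp3 and Acsl4. Ucp1, the uncoupling protein of brown fat, was detected on 0 arrays in either tissue, and Fgf21 and Cyp4a14 on 0 EWAT arrays.

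**Figure D5:**
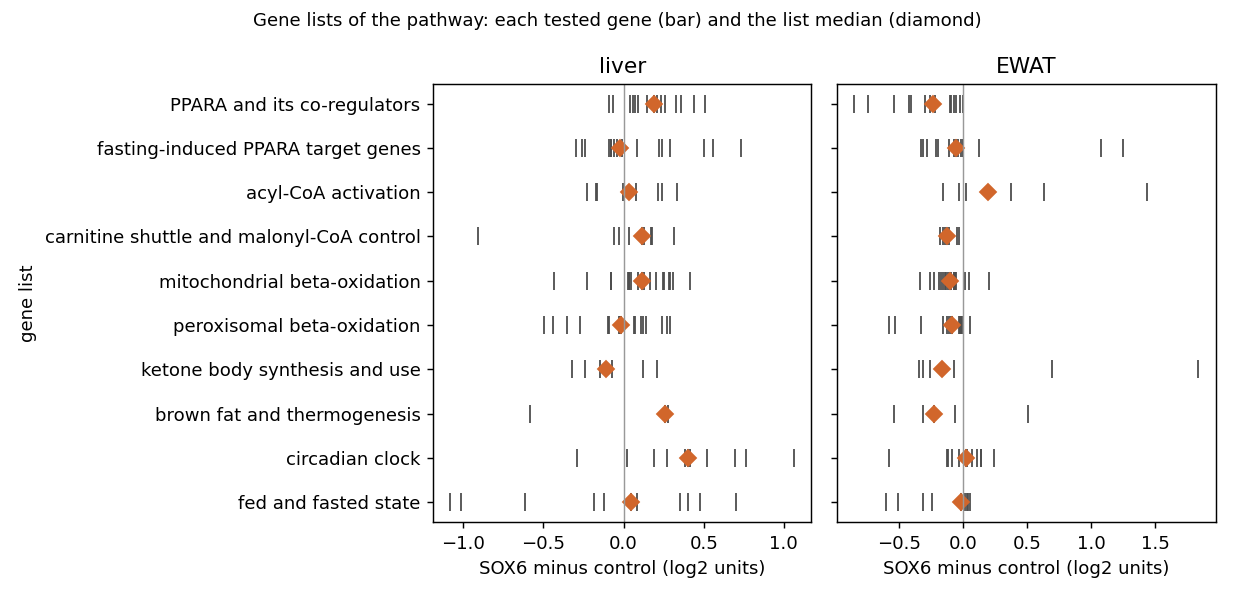
Log2 difference, SOX6 minus control gapmer, of each tested gene of a list (bars) with the list median (diamonds), in liver and EWAT. The oxidation lists lie mostly right of 0 for PPARA co-regulators and mitochondrial beta-oxidation in liver (medians 0.19 and 0.11), and left of 0 in EWAT (-0.24 and -0.10, or -0.10 and -0.0035 with median scaling).

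Whether a member responded differently in liver and EWAT was asked with an interaction term, and 0 of the 6 members that were detected in both tissues passed. Among all 8432 genes tested, 0.0593% passed, which is 5 genes, and 0 to 2 when any 1 animal label was left out. Cpt2 came closest, with a response lower in EWAT than in liver by -0.33 log2 units (95% interval -0.61 to -0.05, limma adjusted p = 0.692). Bdh1 differed by 1.51 (95% interval -0.07 to 3.10, limma adjusted p = 0.759), with EWAT S2 and S4 as the high samples. In EWAT it met the detection filter only through treated samples. For Acadm the interaction was -0.18, for Cpt1b -0.27, for Acadl -0.04 and for Hadha 0.04. Their intervals were -0.42 to 0.07, -0.89 to 0.35, -0.67 to 0.58 and -0.46 to 0.54.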

How the data were processed

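RNA came from a Trizol extraction with column clean-up and DNase, and biotin-labelled cRNA was hybridised to Illumina arrays, per the labels' protocols. GenomeStudio was used, per the submitters' processing notes, and its version is not given in the sources used here. The deposited intensity values are probe signals with the background subtracted and no scaling between arrays, as the values show, with 25.7% to 37.0% of them below 0. A detection p-value per probe and array was deposited beside them. The authors' processed values are on a log2 scale, rank the probes as the signals do and share 1 distribution over all arrays.

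For each tissue, limma 3.58.1 (neqc, R 4.3.3) corrected the background, added an offset of 16, applied quantile normalization and took log2. The offset compresses folds of dim probes. The 8 pairs of repeat arrays (r of 0.992 to 0.995) were averaged per animal. Alternatives that did not average them took the animal as a random block. Probes with a detection p-value under 0.05 in at least 3 animals were kept, and the brightest kept probe stood for a gene. All genes, and all kept probes, were fitted by lmFit and eBayes (trend over intensity, two-sided tests). Benjamini-Hochberg adjusted p-values under 0.05 counted as called. Replicates are the animals named in the labels, and p-values measure the spread between these samples. Animal labels in liver and EWAT are not stated to be the same animals. Deviations from the group mean correlated at -0.05 to 0.21 between liver and EWAT samples of the same label. Within a tissue, control and treated samples of the same number correlated at -0.04 to 0.33 in liver and -0.04 to 0.66 in EWAT, with 0.66 for C3 and S3. No pairing was used in the main fits.

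Of the probes, 34885 have 1 gene in the platform's annotation, 18 several and 10378 none, and 34807 matched RefSeq by Entrez ID. Named genes were the members, Sox6, 18 pathway genes, the 3 genes of smallest p in each list and tissue, and the 3 genes most like Ppara and Cpt1a. Some of these pathway genes are not reported here. Members and lists were chosen with earlier results of these data known. Fits were checked on simulated data. Of 100 genes given a log2 change of 0.5, 40% were called in liver and 15% in EWAT. With a change of 1, 86% and 63% were called. Both sizes were planted together, with independent noise for each gene. The real data held 21 called genes in liver and 0 in EWAT. With fewer calls the adjusted threshold asks for a smaller p, so these shares may be too high for the real data. Planted changes of 0.5 often went uncalled, and smaller changes, as in most members, were not simulated. The number of arrays limits the precision.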

Additional observations from a re-analysis of the deposited data

Results flagged for a closer look

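In 4 of 50 groups of 4 animals a single animal lay far from the other 3, measured by its gap to the nearest animal over the whole range of the group. Chance flags about 1 in 20 groups. In control liver, C3 read 11.59 for the brightest Cpt2 probe against 11.35 for the nearest animal, and 11.35 for the second Cpt2 probe against 11.20. These probes read the same gene in the same animal. In treated liver, S4 read 6.38 for Ppara against 5.95 for the nearest animal. In treated EWAT, S1 read 6.68 for Hadha against 6.33. What set these animals apart was not tested.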

How the results depend on the processing

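The count of members past the threshold stayed at 0 in each tissue under every alternative run. The liver count of 21 genes became 33 at a threshold of 0.1, 99 with repeat arrays not averaged, 113 with chip as a term as well, 13 with no intensity trend, 37 with array weights, and 12 to 22 with 1 animal left out. With the replicate number as a block it became 43, and no member was called. The 5 interaction genes became 2 with no filter, 0 without EWAT C3, S2, S3 and S4, and 0 to 2 with 1 animal label left out. The members higher in control EWAT numbered 1 to 2 with 1 animal left out. The cause was not tested for these.

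The differences that turned their sign were uncalled. In liver, the third Acadl probe was -0.063 with no normexp, -0.017 with the deposited log2 values, -0.022 with both tissues normalized together, -0.043 with repeat arrays not averaged, -0.082 with chip as a term as well and -0.047 with array weights. In liver, Slc16a6 was -0.16 with the mean of a gene's probes. In liver, Cpt1b was -0.078 with first arrays alone. In liver, Ppara was -0.054 with array weights. In EWAT, Ehhadh was 0.034 with median scaling. In EWAT, Slc25a20 was 0.048 with median scaling. In EWAT, Acadvl was 0.028 with median scaling. In EWAT, Acaa2 was 0.062 with median scaling, 0.019 with array weights, 0.025 without C3 and S3 and 0.10 without C3, S2, S3 and S4. In EWAT, the second Acadl probe was 0.0043 with median scaling. In EWAT, the third Acadl probe was 0.042 with median scaling. In EWAT, Acadl was -0.030 with the mean of a gene's probes. In EWAT, Angptl4 was -0.15 with the mean of a gene's probes, -0.015 with array weights, -0.15 without S2 and S4 and -0.38 without C3, S2, S3 and S4. In EWAT, Pdk4 was -0.083 without S2 and S4 and -0.14 without C3, S2, S3 and S4. In EWAT, Acsl4 was -0.18 without S2 and S4. In EWAT, Acsm3 was -0.099 without S2 and S4 and -0.31 without C3, S2, S3 and S4. In EWAT, Irs2 was 0.0029 without S2 and S4. In EWAT, Cpt1b was 0.00017 without C3, S2, S3 and S4. In EWAT, Hadha was 0.075 without C3, S2, S3 and S4. In EWAT, Fasn was 0.51 without C3, S2, S3 and S4. In the interaction, Acadl was 0.15 without EWAT C3, S2, S3 and S4. Between control tissues, Cpt1b was -0.0071 with the deposited log2 values. In EWAT, Bdh1 was -0.00093 without C3, S2, S3 and S4 and with no filter. With 1 animal left out, differences in liver ran from -0.068 to 0.21 for Ppara, -1.05 to 0.28 for Fgf21, -0.00045 to 0.16 for the second Acadl probe, -0.19 to 0.25 for the third Acadl probe, -0.22 to 0.14 for Acot1, -0.21 to 1.39 for Cyp4a14 and -0.50 to 0.34 for Slc16a6. With 1 animal left out, differences in EWAT ran from -0.18 to 0.32 for Pdk4, -0.21 to 0.16 for Angptl4, -0.44 to 0.13 for Ehhadh, -0.11 to 0.0069 for Acaa2, -0.37 to 0.075 for Acacb and -0.35 to 0.18 for the third Acadl probe. With 1 animal left out, differences in the interaction ran from -0.046 to 0.23 for Hadha and -0.22 to 0.058 for Acadl. With 1 animal left out, differences between control tissues ran from -0.13 to 0.22 for Cpt1b.

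Dim probes limit the reading: Cpt1a and Cpt1b in liver, and Ppara, Cpt1a and, outside S2 and S4, Bdh1 in EWAT lay at or near background, where the offset shrinks any difference.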
